A study of Homo sapiens with 36 samples.

Results

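The genes described here are 36 human genes known as targets of p53, taken by name: 5 in DNA repair and nucleotide supply, 8 in mitochondria and metabolism, 11 in cell death, survival and autophagy, 6 in membrane, signalling and inflammation, and 6 in RNA, transcription, protein turnover and organelles. They are 36 of 18078 genes listed in at least 1 of 3 RNA-seq experiments. The list was chosen with earlier results of these data known, so member counts beside shares of all genes are not independent evidence. All 36 were measured in both experiments on 2102EP-C1 cells and 35 in the experiment on NT2/D1-A4 cells, where SPATA18 was not listed.

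NT2/D1-A4 and 2102EP-C1 are cisplatin-resistant clonal lines derived from the human testicular germ cell tumor lines NT2/D1 and 2102EP, so each line stands for 1 clone. In 2 experiments, NT2/D1-A4 or 2102EP-C1 cells were left untreated (VC), exposed for 6 h to cisplatin at 0.5 µM, pretreated over 3 days with GSK-J4 at 1 µM, or pretreated in this way before the cisplatin exposure (Combination). GSK-J4 inhibits KDM6A and KDM6B, the demethylases that remove the repressive polycomb mark H3K27me3. In the third experiment, 2102EP-C1 cells carried the empty vector pLKO.1 or shRNAs against both demethylases (sh6A+6B) and received either no cisplatin or the same cisplatin dose. Each of the 12 groups had 3 libraries, and the cells were collected 24 h after cisplatin. Values are log2 CPM, read counts scaled to the size of the library (1 CPM is 1 read in 1 M, or 1e6, reads), with a prior count of 3, and differences between groups are differences of these values, which understate the change of genes with few reads. A call required a limma p under 0.05 after Benjamini-Hochberg (BH) adjustment over all genes of the experiment, together with a fold change past 1.3. Where 2 groups of 3 libraries are said not to overlap, this describes the libraries and is not a test. It was common, holding for 9.05% to 33.8% of all genes in a given comparison and direction.

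p53 is a transcription factor that is stabilized by DNA damage and binds a response element made of a pair of half-sites near its target genes. Besides halting the cell cycle and inducing death genes, it switches on genes that repair lesions, supply nucleotides, adjust mitochondrial metabolism, drive autophagy, and send signals to other cells. Cisplatin, which crosslinks DNA, is known to activate it in embryonal carcinoma cells.

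RefSeq promoter windows (GRCh38.p14, 250 bases before to 50 after the start site that the table uses) were found for 29 of the 36 genes. A whole p53 site, here a pair of half-sites with no gap, the invariant core letters of both half-sites kept, and at most 2 mismatches in 20 bases, lay in 4 of these 29 windows (13.8%) and in 0.36% of the windows of 27305 genes. A half-site without mismatch, searched on both strands (the motif is its own reverse complement) and by its nature part of many whole sites, lay in 7 of the 29 (24.1%) against 8.06% of all genes. The windows are shown because the genes with a whole site include ones that were called and one, AEN, that never was. The 4 with a whole site come first, with 0 mismatches in PTCHD4, 1 in DDB2, and 2 in PANK1 and AEN. FDXR and ANXA1, which hold a half-site alone, follow. Capitals mark the site and the sequences read 5′ to 3′ along the gene.

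PTCHD4, chr6:48111193-48111222, minus strand: atgggAGGCTTGCCCAGACTTGCCCagtga
DDB2, chr11:47214964-47214993, plus strand: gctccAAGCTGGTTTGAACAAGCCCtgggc
PANK1, chr10:89645251-89645280, minus strand: gtggcGGGCAGGACTGGGCATGCTCagtgg
AEN, chr15:88621301-88621330, plus strand: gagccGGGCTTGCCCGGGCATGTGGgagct
FDXR, chr17:74872986-74873015, minus strand: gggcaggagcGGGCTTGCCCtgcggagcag
ANXA1, chr9:73151719-73151748, plus strand: tagttttgcaAGACTTGTTTcactttgttt

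The libraries held 26.8 to 49.5 M reads in NT2/D1-A4, 30.3 to 53.6 M in 2102EP-C1 with GSK-J4, and 79.4 to 100.9 M in the knockdown experiment, and the fewest reads for any of the 36 genes in a library were 91, for PIDD1. In sh6A+6B cells KDM6A was lower than in pLKO.1 by 1.01 ± 0.03 and KDM6B by 1.01 ± 0.05 (log2, SE), while GSK-J4 raised KDM6B by 0.88 in NT2/D1-A4 and 0.81 in 2102EP-C1. All 12 embryonal carcinoma markers examined were listed in each experiment, and their summed level went from 8348 to 8521 CPM in untreated NT2/D1-A4 to 6074 to 6587 CPM after both agents, and from 11300 to 11593 to 8950 to 9406 CPM in 2102EP-C1. In the knockdown experiment it went from 10706 to 10759 CPM in untreated pLKO.1 to 9345 to 9377 CPM in sh6A+6B with cisplatin. Single markers went both ways. With both agents 8 of the 12 were lower and 4 higher in NT2/D1-A4, and 11 lower and 1 higher in 2102EP-C1. Against untreated pLKO.1, 7 were lower and 5 higher in sh6A+6B with cisplatin (median -0.01), and 5 lower and 7 higher in untreated sh6A+6B. Of 20 markers of fibroblasts, Sertoli and Leydig cells, and blood and endothelium, 9 or 10 were listed, and PTPRC, CD3E, DCN, LUM, and CYP17A1 were not. The summed level of the 3 fibroblast markers listed was higher in untreated sh6A+6B (147 to 155 CPM) than in untreated pLKO.1 (117 to 124 CPM), without overlap. It was lower after GSK-J4 than in untreated cells, 82.4 to 90.6 against 105 to 109 CPM in NT2/D1-A4 and 98.1 to 109.6 against 117 to 121 CPM in 2102EP-C1. The 3 markers did not move together. With knockdown alone 2 were higher and 1 lower, and with GSK-J4 alone 1 was higher and 2 lower in each line. The sums for the other 2 lists lay between 5.64 and 21.8 CPM in all libraries. The part of these markers in the values below was not tested, and in bulk RNA fewer cells with a transcript and less of it per cell cannot be told apart. The spans of XPC, POLH, TP53I3, PANK1, APAF1, EPHA2, and FBXO22, 7 of the 36, overlap the span of another listed gene. Whether their exons overlap was not examined. Where exons do overlap, telling the reads apart can depend on strand, whose setting in the counting was not given in the sources used here.

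Cisplatin alone raised few of the 36 genes past the fold limit, but nearly all were higher. The call was reached by 6 of 35 in NT2/D1-A4 (2.05% of all genes were called up), by 7 of 36 in 2102EP-C1 (0.881%), and by 9 of 36 in pLKO.1 cells (2.53%), with medians of 0.24, 0.23, and 0.25 against medians near 0 over all genes. None was called down, where 0.396%, 0.188%, and 0.462% of all genes were. DRAM1, TRIM22, and FDXR were called in all 3 experiments. Without the fold limit the numbers were 22 (5.85% of all genes), 23 (3.06%), and 30 (17.9%). The knockdown experiment, which was the deepest, had the largest number, as it had for all genes. The part of depth in this was not tested, since depth and experiment cannot be told apart here.

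GSK-J4 alone, without any cisplatin, moved more of these genes and further, above all in NT2/D1-A4. There 25 of 35 were called up (13.8% of all genes), with a median of 0.69, and in 2102EP-C1 11 of 36 (7.79%), with a median of 0.28. None was called down in either line (6.48% and 3.12% of all genes). The 10 genes called in both were ANXA1, BLOC1S2, CYFIP2, DRAM1, EDA2R, EPHA2, SUSD6, TP53I3, TRIM22, and ZMAT3, which are 10 of the 25 and 10 of the 11, and the other in 2102EP-C1 was SPATA18. The difference between the lines was not tested. Knockdown alone called 3 of 36 up, TRIM22, ANXA1, and ACER2, a share near that of all genes (6.34%). It called none down (5.74%), and the median was 0.04, with 21 genes higher and 15 lower. Without the fold limit 14 of 36 were higher (25.6% of all genes) and 7 lower (27.2%).

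With both treatments against untreated cells, 28 of 35 were called up in NT2/D1-A4 (15.9% of all genes), 25 of 36 in 2102EP-C1 (12.8%), and 9 of 36 in sh6A+6B with cisplatin against untreated pLKO.1 (8.51%), with medians of 0.85, 0.54, and 0.28. None was called down (9.56%, 9.77%, and 7.5% of all genes). The 8 genes called in all 3 were ACER2, ANXA1, CMBL, DRAM1, EDA2R, FDXR, IKBIP, and TRIM22. Comparisons within an experiment that use the same untreated libraries share their error. In the Combination group of 2102EP-C1, replicate 1 was the highest of the 3 libraries for 28 of the 36 genes, and without it 24 were called. In the untreated group of that experiment, replicate 3 was the highest for 26 of the 36. With both agents 28 genes were called without VC replicate 3 and 23 without VC replicate 2. XPC, TIGAR, TRIAP1, AEN, TNFAIP8, and PLXNB2 were called in none of the 15 comparisons.

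**Figure D1:**
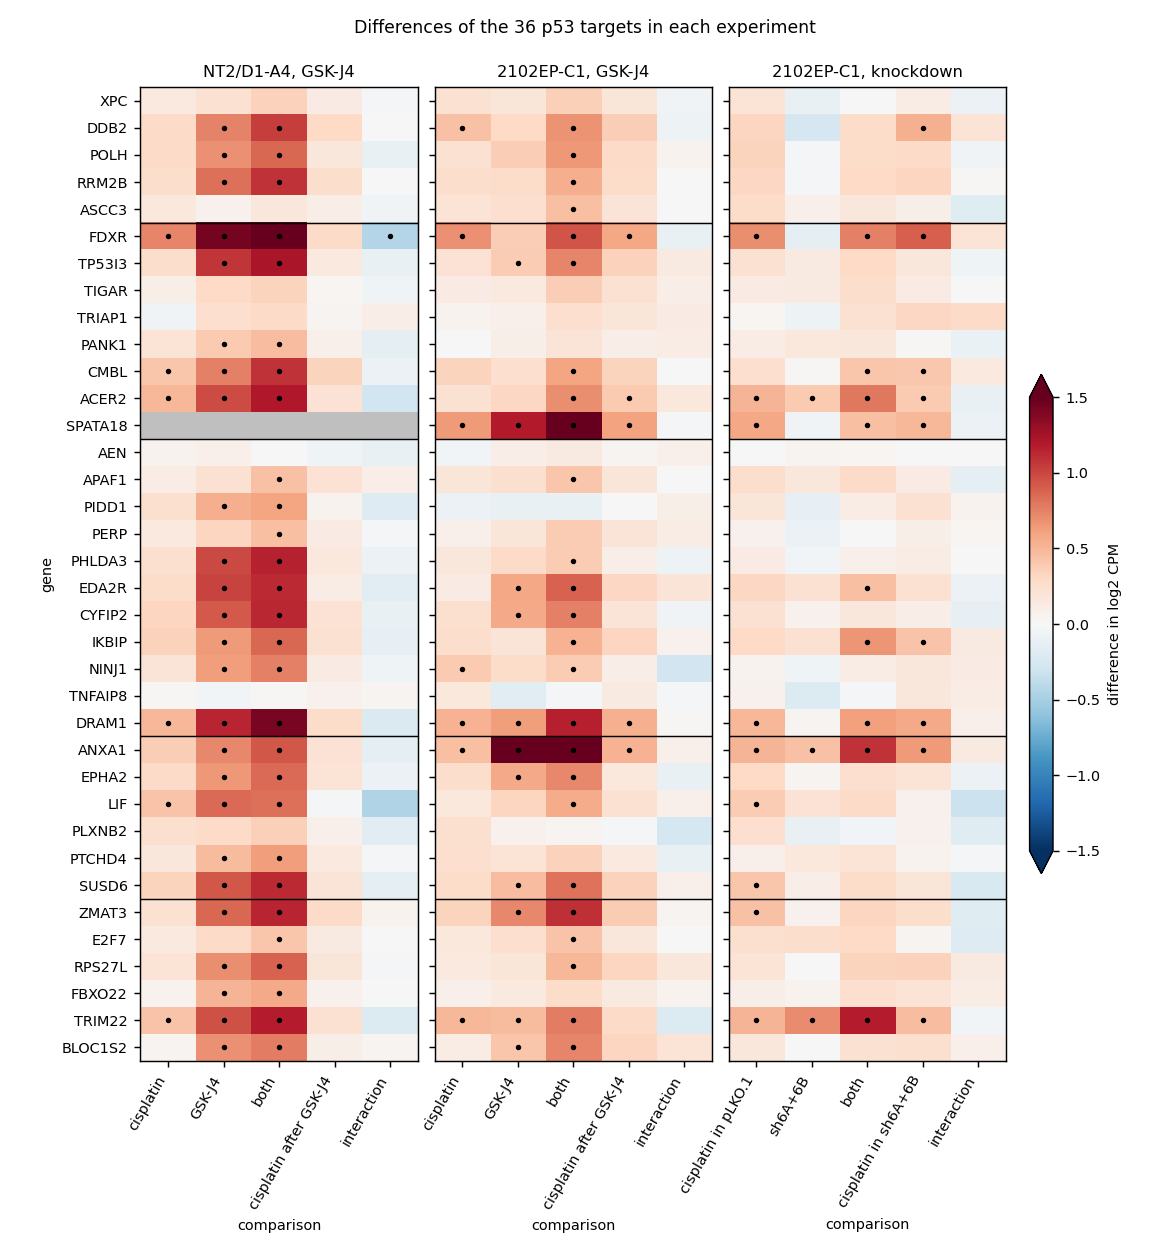
Differences in log2 CPM of the 36 genes (rows, in 5 groups by role separated by lines) for the 5 comparisons of each experiment (columns), from blue (lower) to red (higher), with a dot where a gene was called and grey where SPATA18 was not listed. Red fills the GSK-J4 and combined columns of NT2/D1-A4, with 25 and 28 calls, while the sh6A+6B column has 3.

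The repair genes were higher after cisplatin alone, but mostly within the fold limit. XPC and DDB2 recognise helix-distorting lesions in nucleotide excision repair, POLH bypasses them during replication, RRM2B is the p53-inducible small subunit of ribonucleotide reductase, and ASCC3 is a helicase of alkylation repair. All 5 were higher after cisplatin in each experiment, from 0.14 to 0.44. The sole call, however, was DDB2 in 2102EP-C1, where 0.881% of all genes were called up. There DDB2 stood at 4.77, 4.79 and 4.81 log2 CPM in untreated libraries, 5.26, 5.21 and 5.20 after cisplatin, 5.09, 5.08 and 5.11 after GSK-J4, and 5.51, 5.46 and 5.41 after both. The groups did not overlap, with cisplatin above GSK-J4, and cisplatin alone gave 0.44 ± 0.04 (SE, adjusted p = 1.85e-07).

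With GSK-J4 alone, DDB2, POLH, and RRM2B were called in NT2/D1-A4 (13.8% of all genes) and none of the 5 in 2102EP-C1 (7.79%). RRM2B moved furthest in NT2/D1-A4, from 7.41, 7.39 and 7.43 log2 CPM untreated and 7.66, 7.67 and 7.71 after cisplatin to 8.22, 8.23 and 8.26 after GSK-J4 and 8.33, 8.50 and 8.66 after both. Each group lay wholly above the one before it, and GSK-J4 alone gave 0.82 ± 0.05 (SE, adjusted p = 4.9e-10). The S-phase subunit RRM2 and the large subunit RRM1 differed by -0.06 and 0.09 in the same comparison and were not called. In 2102EP-C1, 4 of the 5 were called with both agents (12.8% of all genes), among them ASCC3 at 0.45 ± 0.04 (SE, adjusted p = 1.66e-10). XPC at 0.36 remained under the fold limit.

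With knockdown alone no repair gene was called (6.34% of all genes up and 5.74% down), and the 5 differences ran from -0.25 to 0.08. DDB2 was at 5.20, 5.13 and 5.23 log2 CPM in untreated pLKO.1 and at 4.91, 4.91 and 4.97 in untreated sh6A+6B, a difference of -0.25 ± 0.03 (SE, adjusted p = 7.94e-08), under the fold limit but with no overlap (29.9% of all genes were lower without overlap). After cisplatin it reached 5.50, 5.51 and 5.52 in pLKO.1 and 5.49, 5.43 and 5.47 in sh6A+6B. The sh6A+6B cells thus started lower and ended close to the pLKO.1 level, slightly below it, and cisplatin gave 0.53 ± 0.03 (SE, adjusted p = 9.57e-13) in sh6A+6B, the only repair call in that experiment. XPC was lower with knockdown by 0.11 ± 0.02 (log2, SE, adjusted p = 0.000128). DDB1, the partner of DDB2 in the damage-sensing complex, differed by -0.01 with knockdown, and POLK, another translesion polymerase, by -0.11. Neither was called in any of the 15 comparisons.

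Among the mitochondrial and metabolic genes, FDXR gave the largest response of all 36 genes to cisplatin alone (in the knockdown experiment, in pLKO.1) in each experiment. After GSK-J4 the largest cisplatin response was that of CMBL in NT2/D1-A4 (0.33) and that of SPATA18 in 2102EP-C1 (0.60). The FDXR gene (chromosome 17, 74862497 to 74872994, GRCh38.p14) encodes ferredoxin reductase, which passes electrons from NADPH to mitochondrial ferredoxin. In NT2/D1-A4 FDXR was at 3.86, 3.88 and 3.73 log2 CPM untreated, 4.54, 4.59 and 4.52 after cisplatin, 5.24, 5.17 and 5.36 after GSK-J4, and 5.54, 5.59 and 5.50 after both, with no overlap between any groups. Cisplatin alone gave 0.73 ± 0.06 (SE, adjusted p = 2.2e-07) and GSK-J4 alone 1.44 ± 0.06 (SE, adjusted p = 2.11e-13), the largest GSK-J4 difference among the members in that line. Its promoter half-site is shown above. FDX1, a ferredoxin that receives these electrons, was called in none of the comparisons.

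In 2102EP-C1 the order was different. FDXR stood at 3.92, 3.95 and 4.07 untreated, 4.71, 4.61 and 4.66 after cisplatin, 4.37, 4.44 and 4.22 after GSK-J4, and 4.98, 4.92 and 4.85 after both, so the cisplatin libraries lay above the GSK-J4 libraries. Cisplatin alone gave 0.68 ± 0.06 (SE, adjusted p = 3.58e-08) and GSK-J4 alone 0.36 ± 0.06 (SE, adjusted p = 2.56e-05), the latter just under the fold limit. In the knockdown experiment it was at 4.03, 4.0 and 4.02 in untreated pLKO.1, 4.71, 4.68 and 4.75 in pLKO.1 with cisplatin, 3.85, 3.92 and 3.85 in untreated sh6A+6B, and 4.77, 4.76 and 4.79 in sh6A+6B with cisplatin. Untreated sh6A+6B libraries lay below untreated pLKO.1 and treated ones above treated pLKO.1. Knockdown alone gave -0.14 ± 0.03 (SE, adjusted p = 0.000667), which is under the fold limit.

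SPATA18, also called Mieap and linked to mitochondrial quality control, was measured in 2102EP-C1 only. It was at 2.32, 2.08 and 2.44 log2 CPM untreated, 2.80, 2.96 and 2.97 after cisplatin, 3.48, 3.46 and 3.46 after GSK-J4, and 4.3, 4.03 and 3.88 after both. These groups were ordered without overlap, and GSK-J4 alone gave 1.19 ± 0.09 (SE, adjusted p = 1.88e-10) and both agents 1.79 ± 0.09 (SE, adjusted p = 1.98e-14). With knockdown alone it was not called: untreated sh6A+6B libraries at 2.29, 2.34 and 2.50 overlapped untreated pLKO.1 at 2.40, 2.42 and 2.47, and the difference was -0.05 ± 0.06 (SE, adjusted p = 0.478). Cisplatin raised it both in pLKO.1 (0.58) and in sh6A+6B (0.50).

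ACER2, an alkaline ceramidase of the Golgi, was the metabolic gene called with knockdown alone. Its levels were 3.03, 2.90 and 2.93 log2 CPM in untreated pLKO.1, 3.50, 3.46 and 3.43 in pLKO.1 with cisplatin, 3.33, 3.30 and 3.41 in untreated sh6A+6B, and 3.64, 3.72 and 3.86 in sh6A+6B with cisplatin. The 4 groups did not overlap, and knockdown alone gave 0.39 ± 0.05 (SE, adjusted p = 7.33e-07), close to the fold limit, so that leaving out pLKO.1 replicate 2 or sh6A+6B replicate 3 ended the call, with a smallest value of 0.36. In NT2/D1-A4 it rose with cisplatin (0.50) and GSK-J4 (0.98). CMBL, a cytosolic hydrolase, was called with cisplatin in NT2/D1-A4 (0.42) and in sh6A+6B (0.41). ACER2 was called in sh6A+6B with cisplatin as well (0.39), but not without sh6A+6B replicate 2 or sh6A+6B Cisplatin replicate 3, with a smallest value of 0.33.

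The other metabolic genes divided. TP53I3, a quinone oxidoreductase, was called with GSK-J4 in NT2/D1-A4 (1.07) and, near the limit, in 2102EP-C1 (0.38), where leaving out VC replicate 1, VC replicate 2, or GSK-J4 replicate 3 ended the call and the smallest value was 0.36. PANK1, which starts coenzyme A synthesis and holds a whole promoter site, was called with GSK-J4 alone only in NT2/D1-A4 (0.39). That call was lost without VC replicate 2 at 0.37, while its call there with both agents remained without each library in turn. TIGAR, a sugar phosphatase that restrains glycolysis, was at most 0.37 in any comparison, and TRIAP1, a small mitochondrial lipid-transfer partner, at most 0.31, in sh6A+6B with cisplatin.

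DRAM1 had the largest difference of the 11 death, survival and autophagy genes with cisplatin alone in each experiment and with GSK-J4 alone in both lines, while with knockdown alone the largest was that of IKBIP (0.23). The gene (chromosome 12, 101877580 to 101923612) encodes a lysosomal membrane protein that links p53 to autophagy, and it is among the few genes that the study itself displayed from these samples, so its direction is not independent evidence. In NT2/D1-A4 it stood at 4.56, 4.47 and 4.47 log2 CPM untreated, 4.94, 5.03 and 5.01 after cisplatin, 5.55, 5.69 and 5.71 after GSK-J4, and 5.91, 5.96 and 5.91 after both. All groups were separate, and the 2 single agents gave 0.49 ± 0.05 (SE, adjusted p = 4.26e-06) and 1.15 ± 0.05 (SE, adjusted p = 9.95e-13). In 2102EP-C1 the levels were 4.42, 4.42 and 4.49, 4.95, 4.90 and 5.03, 5.15, 4.99 and 5.09, and 5.72, 5.60 and 5.51 in the same order, with the single agents overlapping each other and GSK-J4 at 0.63 ± 0.05 (SE, adjusted p = 5.96e-10). In the knockdown experiment DRAM1 followed cisplatin but not the shRNAs. Untreated pLKO.1 at 4.57, 4.60 and 4.65 overlapped untreated sh6A+6B at 4.62, 4.62 and 4.70, while cisplatin brought them to 5.14, 5.09 and 5.08 and 5.23, 5.23 and 5.19. Knockdown alone differed by 0.04 ± 0.03 (SE, adjusted p = 0.306).

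Of the 11 genes in this group, 7 were called with GSK-J4 in NT2/D1-A4 (PIDD1, PHLDA3, EDA2R, CYFIP2, IKBIP, NINJ1, and DRAM1) and 3 in 2102EP-C1 (EDA2R, CYFIP2, and DRAM1). None was called with knockdown alone. Of all genes, 13.8%, 7.79%, and 6.34% were called up in these comparisons. EDA2R, a TNF receptor family member, was higher by 1.01 ± 0.05 (SE, adjusted p = 1.83e-11) in NT2/D1-A4, 0.58 ± 0.04 (SE, adjusted p = 3.19e-11) in 2102EP-C1, and 0.22 ± 0.02 (SE, adjusted p = 5.65e-08) with knockdown, the last under the fold limit. PHLDA3, which blocks AKT at the membrane, was at 0.99 with GSK-J4 in NT2/D1-A4 and 0.29 in 2102EP-C1. CYFIP2, a subunit of the WAVE actin regulator, was at 0.92 and 0.57.

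APAF1, the scaffold of the apoptosome, was called only with both agents, at 0.44 in NT2/D1-A4 and 0.41 in 2102EP-C1. IKBIP, whose RefSeq start lies head to head with that of APAF1 on chromosome 12 (IKBIP ends at 98644788 and APAF1 starts at 98645290, GRCh38.p14), was at 0.86 and 0.52 there and at 0.66 in sh6A+6B with cisplatin, against 0.29 for APAF1. NINJ1, which ruptures the plasma membrane in lytic death, was called with cisplatin in 2102EP-C1 (0.39 ± 0.11 (SE, adjusted p = 0.0491)), but 7 of the 12 libraries, left out one at a time, ended that call, with values from 0.32 to 0.48. Voom ended it as well (adjusted p = 0.0602), and so did a replicate block in limma (adjusted p = 0.0658), with the same-numbered untreated and cisplatin libraries deviating together in that experiment. Its call with both agents there (0.38) also ended with voom (0.36, under the fold limit). Its paralog NINJ2 was called down with knockdown alone (-0.51 ± 0.09 (SE, adjusted p = 4e-05)).

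PIDD1, which assembles a caspase-activating complex, was called with GSK-J4 in NT2/D1-A4 (0.55 ± 0.12 (SE, adjusted p = 0.000887)) and lay at -0.11 ± 0.10 (SE, adjusted p = 0.396) in 2102EP-C1. PERP, a p53 target of cell junctions, was called only with both agents in NT2/D1-A4 (0.45). AEN, an apoptosis-enhancing nuclease with a whole promoter site, ranged from -0.12 to 0.14 over the 15 comparisons. TNFAIP8, a regulator of survival, ranged from -0.20 to 0.17. PTCHD4, whose whole site has no mismatch, was called in NT2/D1-A4 with GSK-J4 (0.48) and with both agents (0.63) and nowhere in 2102EP-C1. Windows with a whole site thus belonged to DDB2, which was called in both lines, and to AEN, which was called in neither.

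ANXA1 gave the largest difference of any of the 36 genes in 2102EP-C1 cells with GSK-J4. Annexin A1 (gene on chromosome 9, 73151865 to 73170393) binds phospholipids and dampens inflammation, and like DRAM1 it was displayed by the study from these samples, so it is not independent evidence. It was at 6.15, 6.11 and 6.12 log2 CPM untreated, 6.54, 6.63 and 6.57 after cisplatin, 7.75, 7.65 and 7.80 after GSK-J4, and 8.52, 8.19 and 8.07 after both. The groups did not overlap, GSK-J4 alone gave 1.60 ± 0.06 (SE, adjusted p = 1.34e-16), and both agents 2.13 ± 0.06 (SE, adjusted p = 1.36e-19), a fold of 4.38. In NT2/D1-A4, where the untreated levels were 7.63, 7.59 and 7.40, GSK-J4 gave 8.22, 8.31 and 8.26 and 0.72 ± 0.07 (SE, adjusted p = 9.18e-08). ANXA1 was also one of the genes called with knockdown alone. Its levels were 5.59, 5.57 and 5.54 in untreated pLKO.1, 6.09, 6.06 and 6.08 in pLKO.1 with cisplatin, 6.01, 6.00 and 6.02 in untreated sh6A+6B, and 6.67, 6.63 and 6.65 in sh6A+6B with cisplatin. All 4 groups were separate, and knockdown alone gave 0.44 ± 0.02 (SE, adjusted p = 4.52e-14).

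LIF, a cytokine of the interleukin-6 family, was called with each agent alone and with both in NT2/D1-A4. It was at 1.92, 2.10 and 2.07 log2 CPM untreated, 2.67, 2.27 and 2.43 after cisplatin, 2.94, 2.82 and 2.88 after GSK-J4, and 2.84, 2.98 and 2.75 after both, where the last 2 groups overlapped. Cisplatin alone gave 0.43 ± 0.10 (SE, adjusted p = 0.0122), a call that ended when VC replicate 1 or Cisplatin replicate 1 was left out, with a smallest value of 0.32, and cisplatin after GSK-J4 gave -0.02 ± 0.10 (SE, adjusted p = 0.947). In the knockdown experiment LIF was at 2.06, 2.26 and 2.07 in untreated pLKO.1 and 2.53, 2.47 and 2.53 with cisplatin, and at 2.26, 2.45 and 2.32 and 2.40, 2.39 and 2.44 in sh6A+6B. The first pair was separate and the second overlapped, and the call in pLKO.1 (0.38) ended when replicate 1 or 3 of either pLKO.1 group was left out, with a smallest value of 0.35.

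SUSD6, a transmembrane protein also known as DRAGO, was the signalling gene with the largest GSK-J4 difference in NT2/D1-A4. Its levels there were 2.26, 2.51 and 2.47 log2 CPM untreated, 2.76, 2.82 and 2.67 after cisplatin, 3.15, 3.42 and 3.46 after GSK-J4, and 3.62, 3.56 and 3.43 after both. GSK-J4 alone gave 0.93 ± 0.09 (SE, adjusted p = 1.32e-07), with the GSK-J4 and combined groups overlapping. EPHA2, an ephrin receptor tyrosine kinase, was called with GSK-J4 in both lines (0.65 and 0.56) and differed by 0.04 with knockdown. PLXNB2, a semaphorin receptor, was higher with cisplatin by 0.23, 0.24, and 0.25 in the 3 experiments, under the fold limit each time, and lower with knockdown by 0.11 ± 0.03 (log2, SE, adjusted p = 0.00538).

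TRIM22 was raised by every single treatment of the 3 experiments. The gene (chromosome 11, 5689790 to 5710863) encodes an interferon-inducible ubiquitin ligase that restricts viruses. In NT2/D1-A4 it was at 4.05, 4.07 and 4.04 log2 CPM untreated, 4.42, 4.43 and 4.58 after cisplatin, 5.09, 4.98 and 4.94 after GSK-J4, and 5.14, 5.26 and 5.28 after both, in an order without overlap. Cisplatin alone gave 0.43 ± 0.06 (SE, adjusted p = 0.000101), which fell to 0.38, under the fold limit, without Cisplatin replicate 3, and GSK-J4 alone 0.95 ± 0.06 (SE, adjusted p = 1.25e-10). In 2102EP-C1 the levels were 2.26, 2.34 and 2.45, 2.79, 2.93 and 2.81, 2.84, 2.70 and 2.93, and 3.08, 3.27 and 3.00, and the single agents overlapped each other. Knockdown gave TRIM22 the largest difference among the members: 2.85, 2.77 and 2.77 in untreated pLKO.1, 3.30, 3.36 and 3.25 in pLKO.1 with cisplatin, 3.57, 3.45 and 3.51 in untreated sh6A+6B, and 4.03, 3.97 and 3.93 in sh6A+6B with cisplatin. The groups were separate, with 0.71 ± 0.05 (SE, adjusted p = 3.45e-12) for knockdown alone and 1.18 ± 0.05 (SE, adjusted p = 2.94e-16) for knockdown with cisplatin.

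ZMAT3, a zinc finger protein that binds RNA and regulates splicing, was the gene of this group with the largest GSK-J4 difference in 2102EP-C1. Its levels were 5.96, 5.96 and 6.06 log2 CPM untreated, 6.31, 6.32 and 6.35 after cisplatin, 6.75, 6.71 and 6.68 after GSK-J4, and 7.21, 7.04 and 7.01 after both. The groups were separate, and GSK-J4 alone gave 0.72 ± 0.04 (SE, adjusted p = 7.93e-13), against 0.86 ± 0.05 (SE, adjusted p = 1.25e-10) in NT2/D1-A4 and 0.06 ± 0.03 (SE, adjusted p = 0.113) with knockdown. BLOC1S2, a subunit of complexes that position lysosomes, was called with GSK-J4 in both lines (0.69 and 0.42) and was at -0.01 with knockdown. RPS27L, a ribosomal protein induced by p53, and FBXO22, the substrate receptor of a ubiquitin ligase, were called with GSK-J4 in NT2/D1-A4 (0.69 and 0.51). RPS27, the paralog of RPS27L, was at -0.23 in the same comparison. E2F7, a repressor of cell cycle genes, was called only with both agents, at 0.42 and 0.42.

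**Figure D2:**
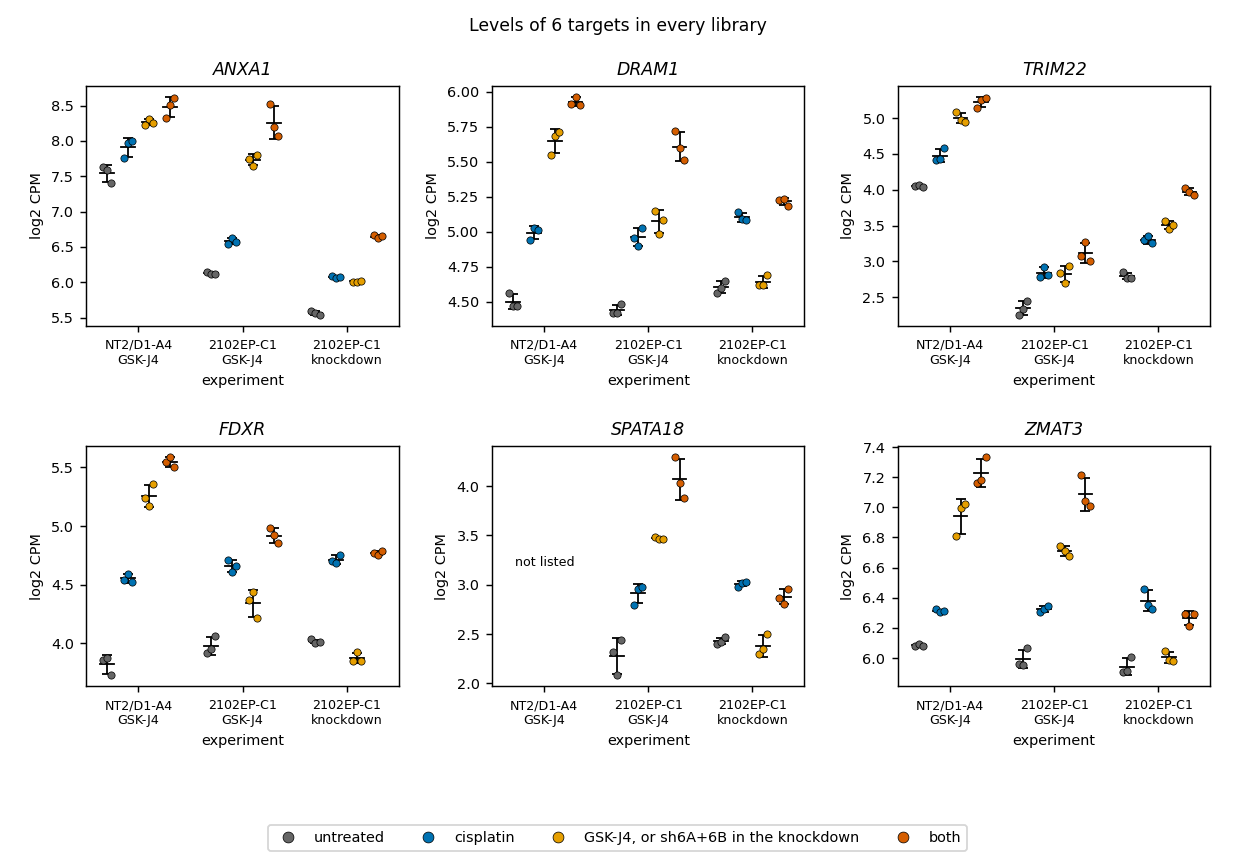
Level in log2 CPM (y axis) of 6 genes in every library of the 3 experiments (x axis), with points for libraries, horizontal lines for group means, and bars for 1 SD (n = 3). In 2102EP-C1 the ANXA1 libraries rise from 6.11 to 6.15 untreated to 8.07 to 8.52 after both agents, and in the knockdown experiment DRAM1 and ZMAT3 overlap between untreated pLKO.1 and untreated sh6A+6B.

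The 27 other p53 pathway genes examined, cell cycle and death genes for the most part, were counted in the same way. Cisplatin alone called 7, 8, and 9 of them up in NT2/D1-A4, 2102EP-C1, and pLKO.1, GSK-J4 alone 17 and 12, and knockdown alone 3, where the shares of all genes were 2.05%, 0.881%, and 2.53% for cisplatin, 13.8% and 7.79% for GSK-J4, and 6.34% for knockdown. The largest rise with GSK-J4 in both lines was that of GDF15, a stress cytokine, at 3.35 and 2.25, and with knockdown alone that of CCNG2, an atypical cyclin, at 0.62. CHEK2, a damage checkpoint kinase, was called down with GSK-J4 in NT2/D1-A4 (-0.40). With knockdown alone none was called down, and SFN, a cell cycle inhibitor, had the lowest value, -0.34. CDKN1A, the inhibitor that arrests the cell cycle downstream of p53, was at 2.07 and 0.93 with GSK-J4 and at 0.09 with knockdown.

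Whether cisplatin acted differently after GSK-J4 was read from the difference of the 2 cisplatin responses, which use no library in common. In NT2/D1-A4, cisplatin after GSK-J4 called none of the 35 genes up (0.158% of all genes) or down (0.219%), and 9 were higher without the fold limit (0.712%). The median was 0.15, against 0.24 for cisplatin alone. FDXR was called in the difference, with cisplatin giving 0.73 before and 0.29 after GSK-J4 and a difference of -0.45 ± 0.08 (SE, adjusted p = 0.0446). No member was called up in this difference (0.0% of all genes) and 1 down (0.0426%). LIF had a difference of about the same size with a larger error, -0.45 ± 0.14 (SE, adjusted p = 0.472). The FDXR call ended when genes with a mean log2 CPM under 1 were left out (adjusted p = 0.0514 in limma) and with voom (adjusted p = 0.0891). It also ended without any 1 of 11 of the 12 libraries, and over the 12 leave-outs the adjusted p in limma ran from 0.0384 to 0.194 and the difference from -0.49 to -0.40.

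In 2102EP-C1, cisplatin after GSK-J4 called 5 of 36 genes up, ACER2, ANXA1, DRAM1, FDXR, and SPATA18 (0.916% of all genes), and none down (1.31%). Without the fold limit 26 were higher (7.64%). ACER2, at 0.39 ± 0.09 (SE, adjusted p = 0.00308), was no longer called without GSK-J4 replicate 2, Combination replicate 1, or Combination replicate 3, with a smallest value of 0.32. The medians of cisplatin alone and cisplatin after GSK-J4 were both 0.23, and the difference of the responses was called for no gene of the 36 (0.194% of all genes up and 0.663% down). For ANXA1 it was 0.07 with a 95% interval from -0.11 to 0.26, and for DRAM1 0.02, from -0.14 to 0.17. Without the fold limit, limma put 1 gene past an adjusted p of 0.05, BLOC1S2, at 0.20 ± 0.05 (SE, adjusted p = 0.0412).

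In sh6A+6B cells cisplatin called 9 of 36 genes up (2.48% of all genes), ACER2, ANXA1, CMBL, DDB2, DRAM1, FDXR, IKBIP, SPATA18, and TRIM22, and none down (1.04%), and without the fold limit 30 (22.1%). The difference from the response in pLKO.1 was called for none (1.09% of all genes up and 2.67% down). Without the fold limit it was higher for 8 (17.2% of all genes) and lower for 9 (18.0%), shares near those of all genes. The 8 were FBXO22, RPS27L, IKBIP, ANXA1, CMBL, FDXR, TRIAP1, and DDB2, led by TRIAP1 at 0.28 ± 0.03 (SE, adjusted p = 8.48e-09). The 9 were E2F7, ZMAT3, APAF1, CYFIP2, LIF, PLXNB2, SUSD6, ASCC3, and XPC, with LIF lowest at -0.32 ± 0.09 (SE, adjusted p = 0.00739). Among the repair genes DDB2 (0.20) and ASCC3 (-0.19) differed in opposite directions.

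**Figure D3:**
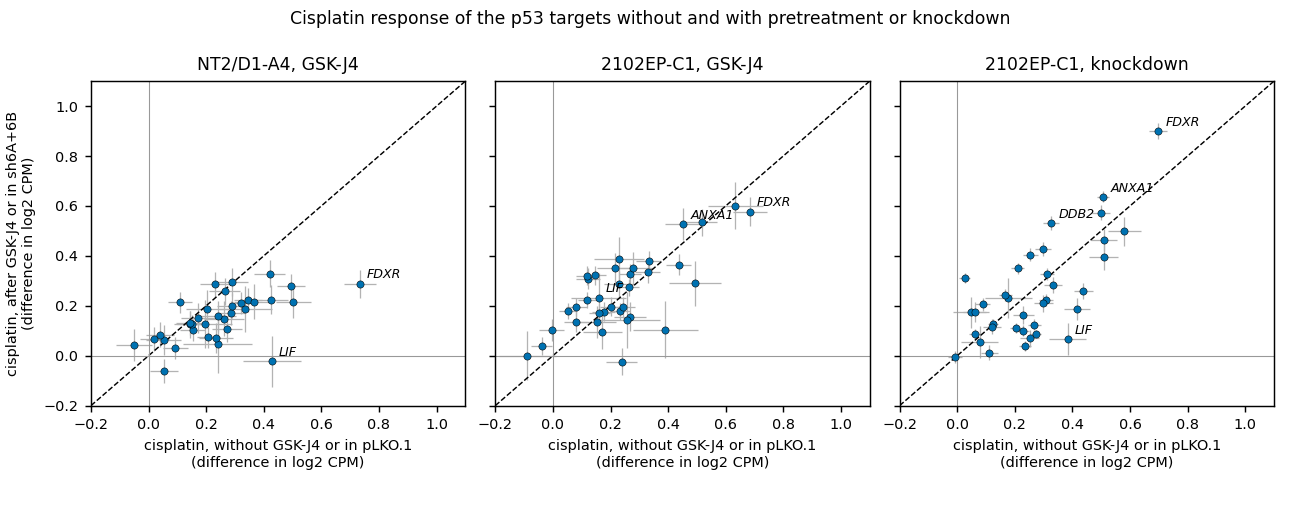
Cisplatin difference in log2 CPM without GSK-J4 or in pLKO.1 (x axis) and after GSK-J4 or in sh6A+6B (y axis) for each member in the 3 experiments, with bars for 1 SE and a dashed line of equality. In NT2/D1-A4 most points lie under the line, FDXR, the gene called, at 0.73 and 0.29, and in the knockdown experiment FDXR lies above it at 0.70 and 0.90.

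The genes on either side of this difference in the knockdown experiment differed in length on the genome, a pattern noticed after the values were seen. The 8 that gained spanned 2.4 to 38.6 kb, with a median of 21.6 kb, and the 9 that lost 6.3 to 373.1 kb, with a median of 55.3 kb. The 2 ranges overlapped, with LIF (6.3 kb), PLXNB2 (32.7 kb), and XPC (33.5 kb) of the 9 lying within that of the 8. Across the 36 genes the difference and the length had Spearman's rho of -0.49 (Pearson's r of -0.41 with log10 length). Over all 16443 named genes rho was -0.30, the same sign in the same libraries. In the experiments with GSK-J4 rho over the members was 0.15 in NT2/D1-A4 and -0.19 in 2102EP-C1, and over all genes -0.02 and 0.01. These are descriptions across genes, which are not independent replicates, and the part of length in the differences was not tested.

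**Figure D4:**
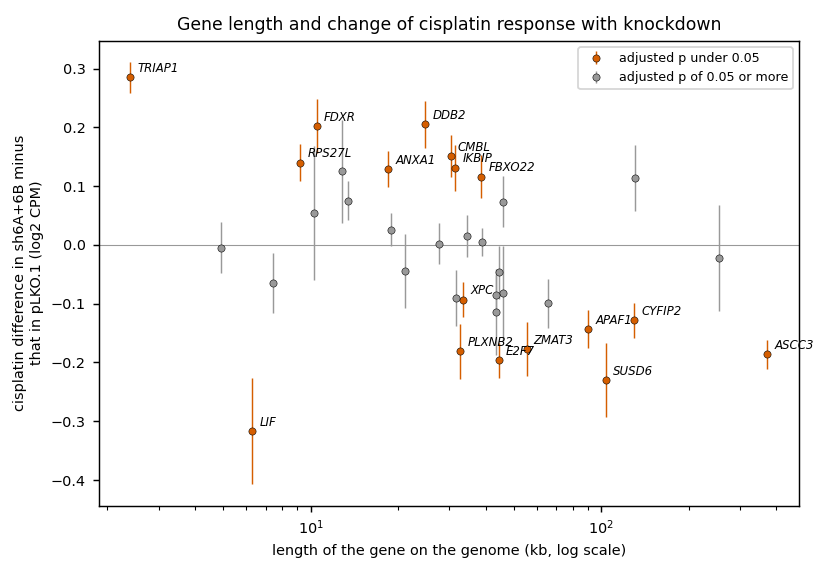
Length of each of the 36 genes on the genome (x axis, kb, log scale) and the cisplatin difference in sh6A+6B minus that in pLKO.1 (y axis, log2 CPM), with bars for 1 SE and colour for an adjusted p under 0.05. TRIAP1, 2.4 kb long, lies highest at 0.28, ASCC3, 373.1 kb long, lies at -0.19, and LIF, 6.3 kb long, lies lowest at -0.32.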

How the data were processed

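The authors made poly(A) libraries with a stranded kit, mapped the reads to GRCh38.p14 (STAR), obtained gene counts (featureCounts), removed genes with few reads, and normalized by TMM; tool versions and the strand setting were not given in the sources used here. The values deposited by the authors are log2 CPM. Undoing a prior count of 3 gave back whole reads, to within 0.05, in 100% of the values under 50 reads. Each experiment was fitted on its 12 libraries by limma-trend (limma 3.58.1, R 4.3.3) with group means and no block, and two-sided p-values were adjusted by BH over all 16431, 17035, or 16459 genes. Symbols were matched by GeneID for 16414, 17020, and 16443 genes. The members and gene lists were chosen with earlier results of these data known. Values in every library are given for the called member with the largest difference in each role group, experiment, and single treatment, and for members called down or in a difference of responses; values of others named here add context. The study calls the libraries of a group biological replicates, and whether they came from separate cultures was not given in the sources used here, so p-values measure the spread between these libraries. Deviations of same-numbered libraries from their group means correlated by 0.243, 0.244, and 0.117 between untreated and cisplatin-treated 2102EP-C1, the one pair of groups compared directly in which all 3 exceeded 0.1, so the blocked value is given beside the call it changed there. Untreated and cisplatin-treated sh6A+6B, also compared directly, had 2 larger values (0.629 and 0.678) and 1 of 0.096. The count of calls for that comparison did not change with the block. Alternatives were a mean log2 CPM filter of 1, only the libraries compared, a replicate block, voom, no TMM, a prior count of 0.5, no fold limit, and leaving out each library. The fit was tested on simulated data with planted differences for pretreatment or knockdown only, all past the fold limit. Recovery of cisplatin differences, of differences of responses, and of values near the limit was not examined. Reads themselves were not used here. Promoter sequences and gene coordinates are from RefSeq, with tables drawn in Python 3.11.15.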

Additional observations from a re-analysis of the deposited data

Results flagged for a closer look

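The test of the difference between 2 cisplatin responses marked FDXR in NT2/D1-A4, with -0.45 (log2), and BLOC1S2 in 2102EP-C1, with 0.20. In the knockdown experiment it marked 17 of the 36 genes, 8 higher and 9 lower, all within the fold limit. By the same rule 17.2% of all genes were higher and 18.0% lower, so the shares of the members lay near those of all genes. The higher ones in sh6A+6B were TRIAP1 (0.28), DDB2 (0.20), FDXR (0.20), CMBL (0.15), RPS27L (0.14), IKBIP (0.13), ANXA1 (0.13), and FBXO22 (0.12). The lower ones were LIF (-0.32), SUSD6 (-0.23), E2F7 (-0.20), ASCC3 (-0.19), PLXNB2 (-0.18), ZMAT3 (-0.18), APAF1 (-0.14), CYFIP2 (-0.13), and XPC (-0.093). FDXR differed downward after GSK-J4 in one line and upward with knockdown in the other, which were different treatments and were not tested against each other. Groups of 3 libraries were not tested for outlying samples.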

How the results depend on the processing

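Of 138 called values of the members, 125 remained called under each of the alternatives with the fold limit and without each library in turn, and none changed direction. With no fold limit the counts of called members rose to 22 and 9 (cisplatin alone and after GSK-J4) in NT2/D1-A4, to 23, 29, 26, and 1 (cisplatin, GSK-J4, cisplatin after GSK-J4, and difference of responses) in 2102EP-C1, and to 30, 21, 29, 30, and 17 (cisplatin in pLKO.1, sh6A+6B alone, both, cisplatin in sh6A+6B, and difference) in the knockdown experiment, by construction of the rule. The 21 were 14 higher (25.6% of all genes) and 7 lower (27.2%). The 17 were 8 higher (17.2%) and 9 lower (18.0%). The other counts held higher genes only. By the same rule 30.9% of all genes were higher and 31.7% lower with both in the knockdown experiment. With GSK-J4 alone in 2102EP-C1, 19.2% were higher and 16.0% lower. The FDXR difference in NT2/D1-A4 went from 1 call to 0 with the filter, with voom, and with the replicate block; the cause was not tested. With the replicate block NINJ1 also lost its cisplatin call in 2102EP-C1, leaving 6, and no other count changed; correlations of same-numbered libraries ran from -0.453 to 0.679 over 18 pairs an experiment, and 5 (NT2/D1-A4), 7 (2102EP-C1 with GSK-J4), and 7 (knockdown) of them exceeded 0.1. All 3 did so for untreated with cisplatin-treated 2102EP-C1, and, among groups not compared directly, for Cisplatin with Combination in NT2/D1-A4 and pLKO.1 Cisplatin with untreated sh6A+6B. Elsewhere the numbers were not taken to pair libraries. Leaving out each library gave 5 to 8, 24 to 25, 28 to 30, 0 to 1, and 0 to 1 calls in NT2/D1-A4, in the order cisplatin, GSK-J4, both, cisplatin after GSK-J4, and difference. The same gave 6 to 7, 10 to 13, 23 to 28, 4 to 7, and 0 in 2102EP-C1, and 7 to 9, 2 to 3, 9, 8 to 9, and 0 to 1 in the knockdown experiment. Beside those named in the report, NINJ1 (smallest value 0.31) and PHLDA3 (0.34) with both agents in 2102EP-C1 and SUSD6 (0.37) with cisplatin in pLKO.1 lost their call without 4, 2, and 1 libraries. Scaling without TMM moved the median of all genes by less than 0.1. Depth limits PIDD1, NINJ1, PTCHD4, and LIF, the members with the fewest reads (91 to 123 in their lowest library).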
